A study of Homo sapiens with 4 samples.

Results

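Shared peaks in dense peak clusters are sites of open chromatin in HEK293T cells that lay in a crowd of other open sites and were called both with and without transfected MORC2. A peak of the control list was counted among them when it lay on a nuclear chromosome other than chromosome 19, was under 1500 bp wide, overlapped an overexpression peak by at least 1 bp and had 5 or more other control peaks with midpoints within 25 kb of its own. Of the 59797 control peaks, 59791 lay on nuclear chromosomes, 57418 of these were not on chromosome 19, 54576 were also narrow enough, 26838 also overlapped an overexpression peak and 2213 also had enough neighbours. The 2213 members made up 8.25% of the shared narrow peaks and 3.70% of the whole control list. The members were chosen by the measured width and position of control peaks and by their overlap with the overexpression list, so those properties are given as a description.

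Open chromatin is DNA that nucleosomes leave accessible, mostly at promoters, enhancers and insulators. Such sites are not spread evenly along chromosomes, and gene-rich stretches, runs of related genes and enhancer clusters hold many of them side by side. MORC2 is a nuclear ATPase that binds and compacts DNA and works with the HUSH complex, which silences genes and retrotransposons through histone H3 lysine 9 trimethylation.

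Accessibility was measured by ATAC-seq, in which the Tn5 transposase cuts open DNA and leaves sequencing adapters at the cuts. The cells of both groups were HEK293T, a widely used line of embryonic kidney origin, here with its own MORC2 gene intact. The control group (2 libraries) received lipofectamine, the transfection reagent, and from the labels it is not clear if an empty plasmid went with it. The overexpression group (2 libraries) was transiently transfected with a plasmid encoding MORC2, which by the methods of the study was fused to the fluorescent protein meGFP. The labels do not give the share of cells that took up the plasmid, and each value is therefore a mean over transfected and untransfected cells.

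Each group had 1 list of peaks, read here as a call on its pooled libraries, so that no comparison between the lists has a replicate check and none was tested. The libraries held 10255182 and 8279528 promoter counts in control and 7211724 and 3734519 in overexpression. Mitochondrial promoters took 51.9% and 55.6% of these counts in control and 74.7% and 73.8% in overexpression. The overexpression group thus had 0.326 times the nuclear promoter counts of the control group. Its list was also shorter, with 34898 peaks. Intervals below are 95% intervals. Those of medians reflect the spread among peaks, those of shares the counting of peaks, and those of single pileup ratios the counting of fragments. Peaks of the same cluster are not independent, and no interval covers variation between libraries.

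For every peak the authors' list gives the fold, which is the number of fragments stacked at the summit (the pileup) plus 1, divided by the local background plus 1. The local background is the number of fragments expected at that place, taken from the mean over several kilobases around the peak or from the genome-wide mean, whichever is higher, and fragments of neighbouring peaks in that window count toward it. Solving the fold together with the −log10 p gave a whole number of fragments for 100% of the nuclear peaks of both lists, within 0.01 fragment, so that pileup and background could be read apart. The genome-wide background was 2.30 fragments in control and 1.15 in overexpression, and it counts mitochondrial fragments too.

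In control, the members stood on a raised floor. Their median pileup was 73 fragments (95% interval 69 to 76), against 53.5 (52 to 55) at the 6192 isolated shared peaks, which had 0 neighbours within 25 kb. Their median local background was 10.3 fragments (9.99 to 10.8), against 3.96 (3.82 to 4.09) at isolated peaks. The fold pointed the other way, with a median of 6.25 (6.06 to 6.48) at members and 10.6 (10.5 to 10.8) at isolated peaks. Members thus held more fragments at their summits than isolated peaks and stood out less from their surroundings. They were chosen for their neighbours, whose fragments count toward the local background, so the contrast in background and fold is a description of the rule. The pileup was also higher among narrow control peaks without an overexpression peak. Its median was 21 fragments at 5 or more neighbours and 14 at 0, on median backgrounds of 5.11 and 2.30 fragments. A peak is called only if it stands out from its local background, so a higher background takes more fragments in both sets. Nothing further is therefore read from the contrast in pileup. The members spanned a wide range, from 10 to 665 fragments of pileup, from 2.30 to 77.8 fragments of background and from 1.82 to 21.3 in fold.

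Only 14 of the 2213 members (0.633%) had a background at the genome-wide level, against 1398 of 6192 isolated peaks (22.6%). Width did not set the groups far apart, with a median of 724 bp at members and 733 bp at isolated peaks. Among the 941 members of 300 to 700 bp the median pileup was 53.0 fragments and the median background 7.99, and among the 2545 isolated peaks of that width they were 32.0 and 2.55. The order of the groups was therefore the same at like width. The median −log10 p was 33.5 at members and 42.1 at isolated peaks.

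The change came in steps with each added neighbour. From 0 to 8 neighbours, the median fold of shared narrow peaks was 10.6, 9.60, 8.76, 8.01, 7.38, 6.66, 6.16, 5.92 and 5.05, and it was 4.58 at 9 or more. The median background over the same steps was 3.96, 4.72, 5.90, 6.88, 7.80, 9.74, 10.4, 11.8 and 12.9 fragments, and 13.3 at 9 or more. The pileup rose less, from 53.5 fragments at 0 neighbours to 72 at 5, and lay between 71.5 and 77 from there on. The limit of 5 neighbours therefore falls on a slope and not at a break. The 1219 members with exactly 5 neighbours, just inside the limit, had a median fold of 6.66 and a background of 9.74 fragments, and the 2415 shared peaks with 4, just outside it, had 7.38 and 7.80. On width, the widest member measured 1498 bp and the narrowest peak left out 1501 bp, with 245 shared peaks left out for width.

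**Figure D1:**
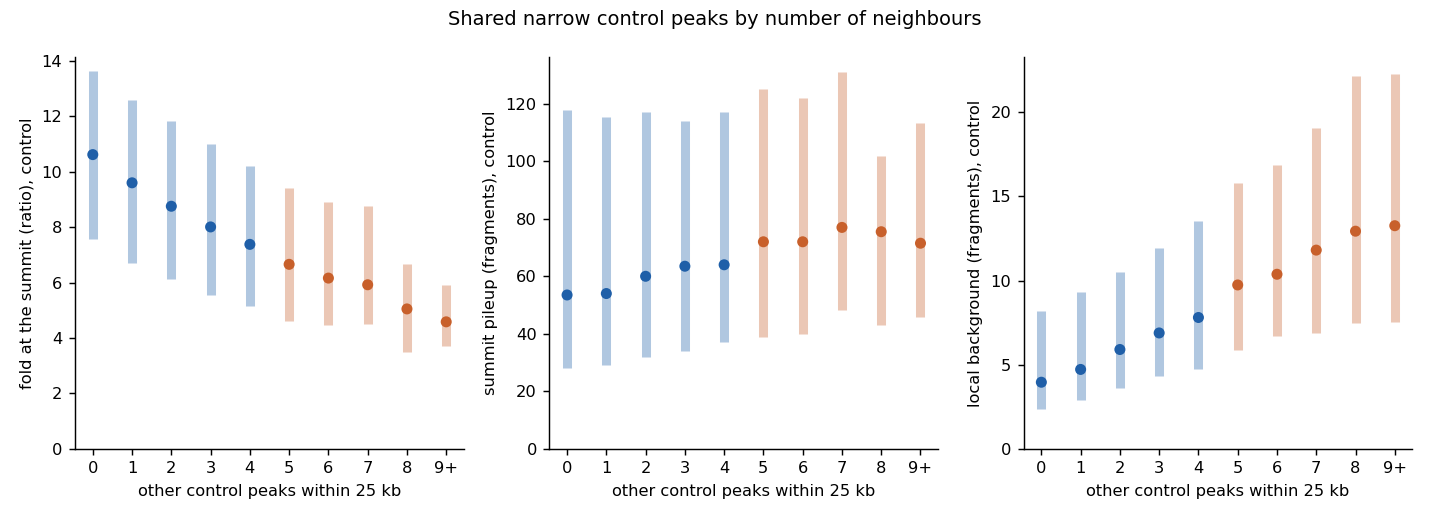
Fold at the summit (ratio), summit pileup (fragments) and local background (fragments) of shared narrow control peaks off chromosome 19, by the number of other control peaks within 25 kb. Points are medians and bars run from the lower to the upper quartile, with members in orange; the median fold falls from 10.6 at 0 neighbours to 4.58 at 9 or more while the median background rises from 3.96 to 13.3 fragments.

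Most members had few neighbours beyond the required 5. Exactly 5 were found at 1219 members (55.1%), 6 at 572, 7 at 234, 8 at 118, 9 at 40 and 10 or more at 30, with a maximum of 15. The nearest control peak lay a median of 3864 bp away (quartiles 1810 and 6277 bp), and 639 members (28.9%) had one within 2000 bp. A higher pileup than every neighbour was found at 572 members (25.8%). The median of the neighbours' median pileup was 44 fragments, against a median of 73 at the members. Members had to overlap an overexpression peak and neighbours did not, so nothing is read from that difference.

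Of 12809 pairs of a member and a neighbour, 34.5% of the neighbours were members themselves, 5.65% were broad peaks of 1500 bp or more, and 46.5% had no overexpression peak, beside 47.8% of all nuclear control peaks. Every neighbour was shared at 109 members, and none was at 67. In the overexpression list the matched peak had a median of 3 neighbours, and 428 of the matches (19.3%) still had 5 or more. As the overexpression list holds fewer peaks in all, fewer neighbours there say nothing of the members alone.

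Members were unevenly spread over the chromosomes. On chromosome 16, 168 of 992 shared narrow peaks were members (16.9%, Wilson interval 14.7 to 19.4), on chromosome 17 12.9%, on chromosome 22 12.3% and on chromosome 11 10.3%. The share was lowest on chromosome 18, with 4 of 407 (0.983%, 0.383 to 2.50), followed by chromosome 4 with 3.84%, chromosome 14 with 4.04% and chromosome 13 with 4.46%. Chromosome 1 held the most members, 298. Chromosome 19, left out by the rule, had 285 shared narrow peaks with 5 or more neighbours, with a median fold of 6.39 and a median background of 11.6 fragments.

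Members also lay toward chromosome ends. Distance was measured from the outermost control peak of each chromosome, as chromosome lengths were not used here. Within 2 Mb of it lay 337 members (15.2%, 13.8 to 16.8), against 2.57% (2.20 to 2.99) of isolated shared peaks and 5.35% (5.03 to 5.68) of shared peaks with 1 to 4 neighbours. Within 10 Mb the shares were 33.6%, 12.05% and 19.01%. The median distance was 23.0 Mb for members, 36.7 Mb for isolated peaks and 30.3 Mb for those with 1 to 4 neighbours.

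**Figure D2:**
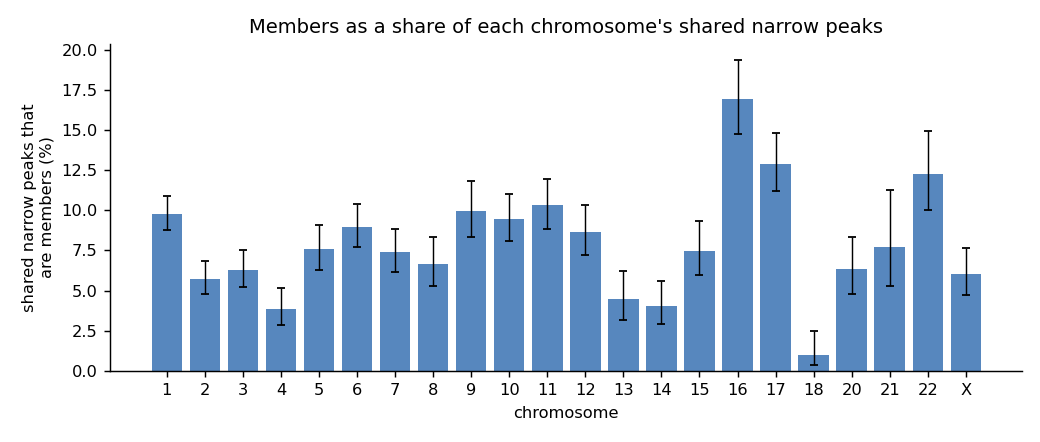
Members as a share (%) of the shared narrow control peaks of each chromosome, with bars from 0 and 95% Wilson intervals as error lines. Chromosome 16 has the highest share, 16.9%, and chromosome 18 the lowest, 0.983%; chromosome 19 is left out by the rule.

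Whether a crowded peak was called again in overexpression was asked over all 4630 narrow control peaks with 5 or more neighbours, shared or not. Of these, 2213 (47.8%, 46.4 to 49.2) overlapped an overexpression peak, against 50.8% (49.9 to 51.7) of narrow control peaks with 0 neighbours. Sorted into 4 equal bins by −log10 p, the share for crowded peaks was 7.23%, 26.6%, 69.0% and 97.6% from weakest to strongest, and for isolated peaks 7.53%, 25.4%, 65.3% and 97.0%. The shares of crowded and isolated peaks of like −log10 p thus lay close together, and crowded peaks were higher by a mean of 1.32 percentage points over the 4 bins. The order over all such peaks depended on the threshold of the lists. Among peaks with a −log10 q of at least 5, 56.4% of crowded and 53.5% of isolated peaks were called again, and with equal numbers of top-ranked peaks in both lists 78.7% and 77.1%.

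Sorted by pileup instead, crowded peaks were called again less often. In bins of 9 to 15, 16 to 26, 27 to 61 and 62 or more fragments, 5.89%, 17.4%, 48.9% and 90.3% of crowded peaks overlapped an overexpression peak, against 9.21%, 36.9%, 75.7% and 99.0% of isolated peaks. The mean difference was −14.6 percentage points, opposite in sign to that by −log10 p. Within these bins the median background was 3.04, 4.76, 8.06 and 15.2 fragments at crowded peaks and 2.30, 2.30, 2.88 and 8.82 at isolated peaks. At like pileup, fewer crowded than isolated peaks were thus found in both lists.

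**Figure D3:**
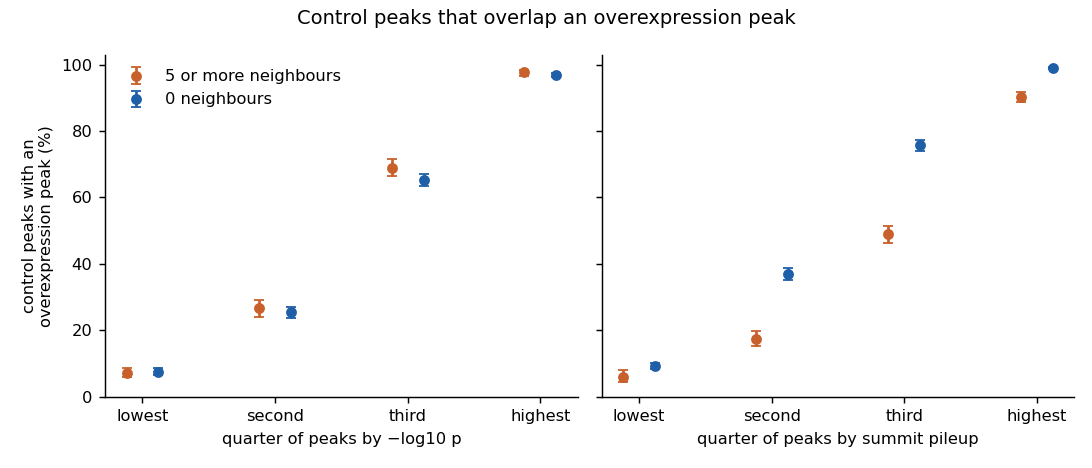
Share (%) of narrow control peaks that overlap an overexpression peak, for peaks with 5 or more neighbours (orange) and 0 neighbours (blue), in 4 equal bins of −log10 p (left) and of summit pileup (right), with 95% Wilson intervals. Sorted by −log10 p the classes lie close together in every bin, and sorted by pileup the crowded peaks lie lower, by the most in the third bin (48.9% against 75.7%).

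At the members themselves, the fold was lower in overexpression at 1794 of 2213 (81.1%), against 90.8% of isolated shared peaks and 88.2% of all 31182 shared nuclear peaks. The median fold went from 6.25 to 5.02, the median pileup from 73 to 28 fragments and the median background from 10.3 to 4.62 fragments. The median log2 ratio of the fold, overexpression over control, was −0.28 (−0.30 to −0.26) at members, −0.40 (−0.41 to −0.39) at isolated peaks and −0.36 at all shared nuclear peaks. The members' fold was thus lower in overexpression by less than that of isolated peaks.

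The gap was smaller without the 1 fragment that the authors' fold adds to pileup and background and that weighs more where counts are low. With nothing added, the median log2 ratio of pileup over background was −0.16 (−0.17 to −0.14) at members and −0.18 (−0.19 to −0.17) at isolated peaks. On that scale the ratio was below 0 at 1514 members (68.4%) and at 72.8% of isolated peaks. From 0 to 8 neighbours, the median log2 ratio of the authors' fold was −0.40, −0.38, −0.36, −0.35, −0.33, −0.30, −0.28, −0.26 and −0.24, and it was −0.18 at 9 or more. With nothing added, the ratio over the same steps was −0.18, −0.19, −0.19, −0.20, −0.19, −0.17, −0.16, −0.13 and −0.13, and −0.07 over the 70 peaks with 9 or more. It therefore did not rise from 0 to 4 neighbours and lay nearer to 0 from 5 on. At 5 neighbours the gap was small, with −0.170 against −0.182 at 0 neighbours. These steps carry no intervals, and no break at the limit is read from them.

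The direction of the pileup alone depended on its scaling. Per genome-wide background, the median log2 pileup ratio was −0.35 (−0.37 to −0.33) at members and −0.38 (−0.39 to −0.36) at isolated peaks. Per nuclear promoter count of each group it was 0.26 at members and 0.23 at isolated peaks, since overexpression had 0.497 times the genome-wide background of control and 0.326 times its nuclear promoter counts. No statement on a rise or fall of accessibility at members is therefore made from pileups, and per genome-wide background the intervals of members and isolated peaks overlapped.

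Within the members the ratio differed between bins of control pileup. The control pileup sets the bin and also enters the divisor of the ratio, so no effect of height is read from the fall over the bins. From the lowest to the highest of the same bins of pileup, the median log2 ratio of pileup over background with nothing added was 0.47 (n = 38), 0.22 (n = 201), −0.07 (n = 689) and −0.24 (n = 1285) at members and 0.43, 0.01, −0.26 and −0.21 at isolated peaks. Weak control peaks have a ratio only where the overexpression list called them again, and most did not pass that step. In the second and the third bin members lay above isolated peaks. The intervals were 0.16 to 0.25 against −0.05 to 0.01 in the second and −0.09 to −0.03 against −0.28 to −0.24 in the third. In these bins 17.4% and 48.9% of crowded control peaks were called again, against 36.9% and 75.7% of isolated ones. That step thus differed between the groups, and nothing is read from their order there. In the highest bin the order was turned, with intervals that nearly met, −0.26 to −0.22 at members and −0.22 to −0.20 at isolated peaks.

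The order of the members among themselves was largely kept. Across members the Spearman correlation between control and overexpression was 0.94 for the pileup and 0.86 for the fold, as a description over 2213 peaks that share libraries, and the same values to 2 decimals were found at isolated peaks. The summit lay within 50 bp of its control position at 1151 members (52.0%) and within 150 bp at 1827 (82.6%), with a median shift of 47 bp against 42 bp at isolated peaks. Over all shared nuclear peaks these shares were 53.1% and 83.0%. The matched overexpression peak was narrower at 1788 members (80.8%), with a median of 554 bp, beside 76.8% of isolated and 79.9% of all shared nuclear peaks.

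**Figure D4:**
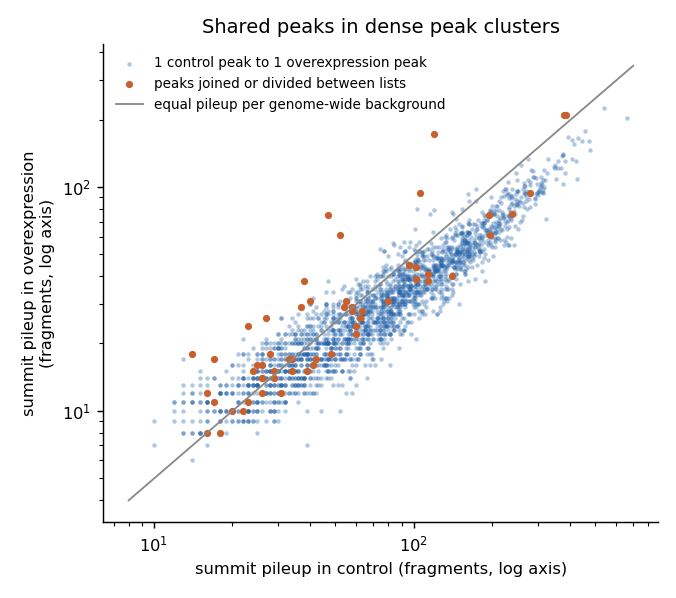
Summit pileup (fragments) of the 2213 members in control and of their matched peaks in overexpression, both on log axes; orange points are members whose peak was joined with or divided from another between the lists. The line marks equal pileup per genome-wide background, and tall members lie mostly below it; the points farthest above it are joined peaks.

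A change of at least 2-fold in the authors' fold was rare. It was higher in overexpression at 6 members (0.271%), beside 0.115% of all shared nuclear peaks, and lower at 26 members (1.17%), beside 2.63%. With nothing added to pileup and background, 10 members were at least 2-fold higher (0.452%, beside 0.375%) and 10 at least 2-fold lower (0.452%, beside 0.683%). The Wilson interval of the members' lower share was 0.803% to 1.72% by the authors' fold and 0.246% to 0.830% with nothing added. The lower share over all shared peaks lay above the first interval and within the second. For the members' higher share the intervals were 0.124% to 0.590% by the authors' fold and 0.246% to 0.830% with nothing added. The higher share over all shared peaks lay below the first of these and within the second. Peaks of a cluster are not independent and the members are among all shared peaks, so these positions are a description and not a test.

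All 6 members at least 2-fold higher were matched to an overexpression peak that covered 2 or more control peaks and had its summit outside the member. Among the 2156 members with a single match that covered no other control peak, 0 were at least 2-fold higher, and the highest log2 ratio was 0.88. Over all 30407 shared nuclear peaks with such a match, 5 were at least 2-fold higher (0.0164%), so the 0 is not read as a trait of members. The member with the highest ratio, chr1:152809204-152809435, was 232 bp wide and had 47 fragments in control, while its 1399 bp match had 75. At chr11:62828738-62829199 the member had 120 fragments and its 2722 bp match 172. The other three of the 5 highest were chr11:496481-496686 (52 and 61 fragments), chr17:7477646-7478293 (106 and 94) and chr6:27773147-27773391 (23 and 24). Such values compare the summits of different control peaks, since the caller joined neighbours in overexpression that it had kept apart in control.

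The 26 members at least 2-fold lower each had a single match with its summit inside the member. They had a median pileup of 63 fragments in control and 16 in overexpression and a median background of 5.77 fragments. The lowest log2 fold ratio, −1.41, was at chr1:15474085-15474548, where the pileup went from 53 to 13 fragments. At chr6:28492632-28493342 the pileup went from 52 to 10 fragments, at chr17:40089598-40090067 from 60 to 13, at chr11:27359887-27360688 from 39 to 7 and at chr9:142905881-142906296 from 81 to 16. Per genome-wide background, the 95% exact counting interval of the log2 pileup ratio lay below 0 at all 5, with upper bounds from −0.547 to −0.125. Per nuclear promoter count, that interval included 0 at all 5, with upper bounds from 0.062 to 0.48. Each of these 5 was picked for its low ratio, so the values describe the lower edge of the members and were not tested.

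Chaining members whose midpoints lay within 25 kb of the next gave 946 clusters. Of these, 428 held 1 member, 210 held 2 and 308 held 3 or more, with 1365 members in the 308 and a median span of 25.3 kb. The 308 spans held 1931 control peaks, of which 487 (25.2%) had no overexpression peak, and 1464 overexpression peaks, of which 21 (1.43%) had no control peak. Over all nuclear chromosomes 9.50% of overexpression peaks had no control peak. These spans were drawn around control peaks that had an overexpression peak, so nothing is read from that gap.

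The strongest peak of a cluster was mostly the same in both lists. By fold it was the same member in 230 of 308 clusters (74.7%, 69.5 to 79.2), and by pileup in 250 (81.2%). Members that shared a match tied in overexpression, and a tie went to the first in the list. The large cluster on chromosome 5 described below was thus counted as different by pileup. Where the tallest member had at least 2 times the pileup of the next, it stayed the tallest in 74 of 76 clusters (97.4%), and without such a lead in 176 of 232 (75.9%). Of pairs of members in the same cluster, 2687 had the same order of pileup in both lists and 403 the opposite order (87.0% the same). The median log2 fold ratio of a cluster ranged from −0.95 to 0.55 and was below 0 in 281 of the 308.

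The largest cluster, chr6:28581019-28692701, had 16 members over 111.7 kb, with 22 control and 16 overexpression peaks. Its members had from 25 to 138 fragments in control and from 13 to 65 in overexpression, on a median background of 6.58 fragments. The strongest was chr6:28622142-28622866, with a fold of 16.8 and 138 fragments in control and a fold of 12.9 and 65 fragments in overexpression, the highest in both lists. Its median background was the lowest among the 10 clusters with the most members, and its median log2 pileup ratio per genome-wide background was −0.07.

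The cluster of longest span, chr11:65448121-65583307, held 14 members over 135.2 kb. Its pileups ran from 35 to 303 fragments in control and from 16 to 97 in overexpression. The strongest by control fold, chr11:65490384-65491504, had a fold of 12.8 and 264 fragments in control and 7.98 and 74 in overexpression. In overexpression another member, chr11:65480674-65481902, had the highest fold, 10.2, after 11.7 in control. Here the strongest peak by fold differed between the lists, while by pileup it was the same.

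The next clusters, on chromosomes 16 and 5 and again of 14 members each, had higher median pileups in control. These were 153.5 and 156.5 fragments, against 69.5 in the chromosome 11 cluster. At chr16:1949292-2068340 the pileups ran from 77 to 301 fragments in control and from 19 to 95 in overexpression, and the median background was 19.5 fragments. Its strongest member, chr16:2067021-2068340, had a fold of 13.9 in control and 9.07 in overexpression, the highest in both. At chr5:181719372-181807901 the median background was 31.4 fragments and the median fold 4.53, and all 17 control peaks overlapped an overexpression peak. The member with the lowest fold of all 2213 lay there, chr5:181807574-181807901, with 60 fragments on a background of 32.5 and a fold of 1.82.

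In the chromosome 5 cluster the strongest member by fold, chr5:181733329-181734536, had 259 fragments in control and 126 in overexpression, with folds of 8.81 and 8.09. The tallest was another, chr5:181782990-181784013, with 386 fragments on a background of 63.9 and hence a fold of 5.96. Its nearest neighbour, chr5:181781652-181782760, had 380 fragments on 77.8, the highest background of any member. A single overexpression peak of 209 fragments covered both.

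The fifth cluster, chr17:49406827-49490618, had 14 members with up to 12 neighbours each. Its pileups ran from 36 to 184 fragments in control and from 20 to 60 in overexpression, on a median background of 18.3. The strongest member by fold, chr17:49489487-49490618, had 184 and 60 fragments and was the highest in both lists. The next 5 clusters were chr17:8023861-8117147 with 12 members, chr1:155796239-155904955, chr9:140084475-140189425 and chr11:816633-896485 with 10 each, and chr1:702087-806212 with 9. In these 5 the strongest member by fold was the same in both lists, and their median log2 fold ratios lay between −0.37 and −0.23.

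**Figure D5:**
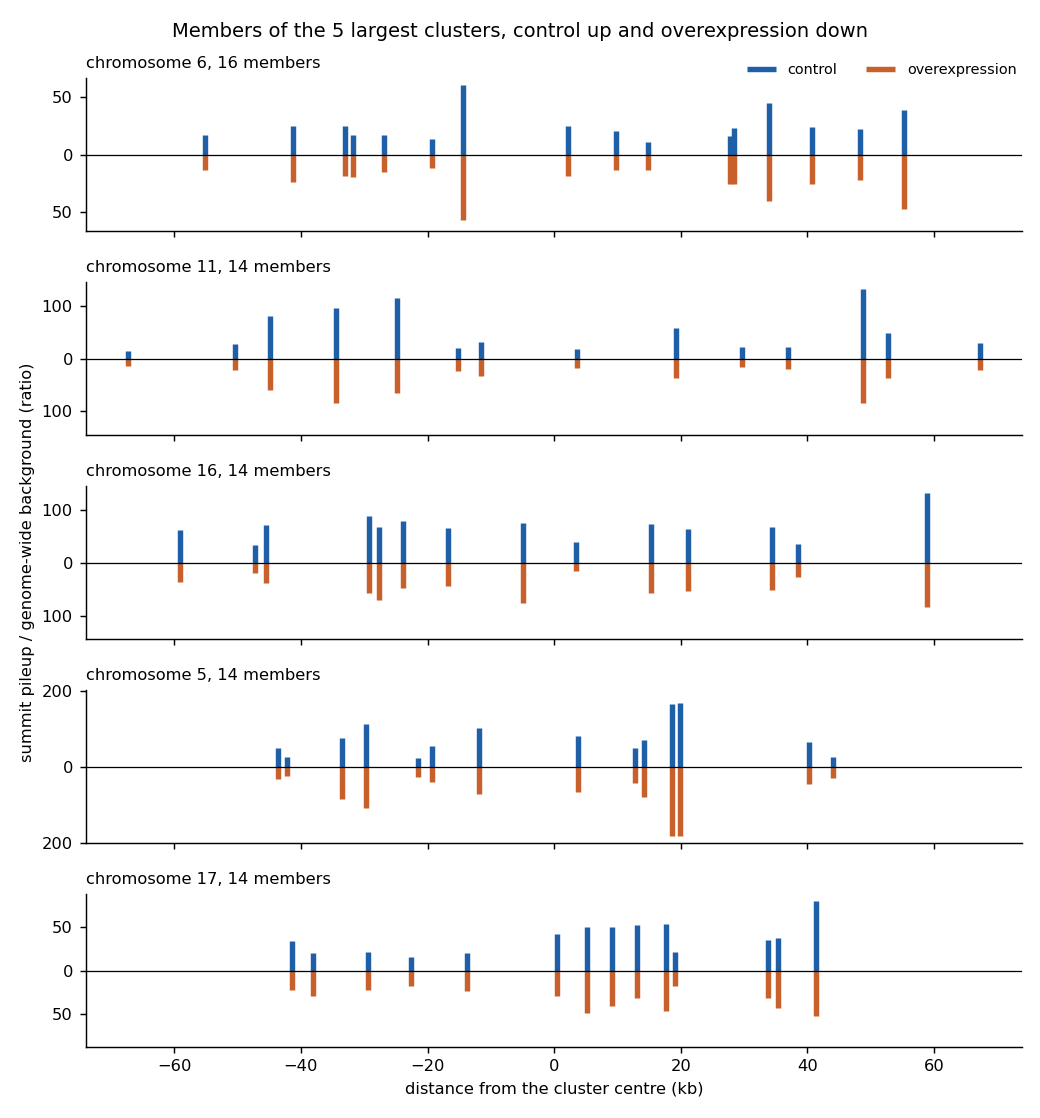
Summit pileup divided by the genome-wide background of its list (ratio) for each member of the 5 largest clusters, against distance from the cluster centre (kb), with control drawn upward and overexpression downward. Tall members in control are tall in overexpression, and members with a joint match share its value, as for the neighbours of 380 and 386 fragments on chromosome 5.

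None of the 5 members of highest fold lay in the 10 clusters named above, where ties in the number of members went to the longer cluster. The highest, chr16:72755170-72755984, had a fold of 21.3 and 275 fragments on a background of 11.97 in control, and a fold of 19.3 and 133 fragments in overexpression. It was the single member of its cluster and its match had 1 neighbour. The others were chr12:53692767-53693774 with folds of 18.2 and 15.6, chr1:225384932-225385312 with 18.2 and 11.8, chr16:31201532-31202511 with 17.9 and 13.9, and chr16:3030393-3031256 with 17.7 and 11.8, the last in another cluster of 9 members, chr16:2988344-3072928. Their backgrounds in control lay between 7.37 and 18.5 fragments. Their overexpression folds lay between 11.8 and 19.3, above the fold of most members in control.

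The 5 members with the most neighbours stood on backgrounds of 21.3 to 36.9 fragments in control, with folds from 2.22 to 6.69. At chr7:27288069-27289060, with 15 neighbours, 108 fragments stood on a background of 29.4 and gave a fold of 3.59 in control, and 38 fragments on 12.7 gave 2.84 in overexpression. It lay in a cluster of 7 members, chr7:27283773-27316387, where folds ran from 2.22 to 4.11 in control and where chr7:27301344-27302586 and chr7:27283773-27285089 had 13 neighbours each. On chromosome 12, chr12:53982986-53984398 and chr12:53982215-53982469 had 14 neighbours each and folds of 6.69 and 2.88 in control and 5.01 and 2.51 in overexpression. The median log2 fold ratio was 0.07 in the chromosome 7 cluster and −0.05 in the chromosome 12 cluster of 9 members.

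All positions are those of the authors' lists on the CHM13 assembly, counted from 1. An annotation of that assembly was not used here, so the genes at these clusters and the place of a peak in a promoter, exon or intron are not given.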

How the data were processed

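ATAC-seq was measured in 2 control and 2 overexpression libraries of HEK293T, grouped by the sample titles. As its methods state, the authors used trimgalore for trimming, bowtie2 for alignment to CHM13, a filter that left proper pairs with high mapping scores, Picard against duplicates, and called peaks with MACS2 in paired-end mode with default options. Correction for the Tn5 cut offset was not mentioned, and offsets of a few bases would hardly move peaks. The deposited lists give, for each peak, the authors' fold (a ratio over local background), −log10 p, −log10 q and a score derived from q. The deposited promoter table holds whole-number counts per Entrez gene, and it was used for library totals and for the share at 37 mitochondrial genes, which a RefSeq table of GRCh38.p14 names.

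From these, neighbours, overlaps and matches were computed with Python 3.11.15, pandas 2.3.3, numpy 2.4.6 and scipy 1.17.1. A member's match was its overlapping overexpression peak of highest fold. Pileup and background were solved from the fold and −log10 p. Medians carry order-statistic intervals and shares Wilson intervals at 95%. Fragments carried no molecular identifiers. With 1 list per group, no interval covers variation between libraries. The solver and the overlap and neighbour code were tested on simulated peaks. The planned count test of promoters that hold a member was not run, because the positions of promoters on that assembly were not used. The members, the lists and the rule for named loci were chosen with earlier results of these data known. That rule names the 10 clusters with the most members, the strongest member by control fold in the first 5 of them, and the 5 members each of highest control fold, highest and lowest log2 fold ratio and most neighbours; other members named beside them in the clusters of chromosomes 5 and 11, and the clusters around the members with the most neighbours, were picked after their values were seen. Alternatives covered the radius, the number of neighbours, the overlap, the match, the peak threshold, the scale of the ratio and the chaining distance.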

Additional observations from a re-analysis of the deposited data

How the results depend on the processing

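With 1 pooled list per group there are no replicates to leave out. No paired analysis was possible because every result comes from 1 pooled list per group, with no test. The count test of promoters on the 4 libraries was not run, since promoters could not be tied to members without their positions, and its other scaling, filter, tool, block and left-out libraries were not run either. Of 59 alternative values, 38 moved, 2 changed sign and 19 stayed within 1.5 times the main count or within the main interval; the cause was not tested beyond what each setting changes by construction.

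Counts followed the rule. With 10 kb there were 40 members in 25 clusters, with 50 kb 9625 in 2539, with 3 neighbours 8398 in 3739, with 10 neighbours 30 in 10, at −log10 q of at least 5 813 in 334, of at least 10 269 in 137, and with equal numbers of top-ranked peaks 509 in 177. Chaining within 10 kb gave 1424 clusters. The share of crowded control peaks with an overexpression peak was 32.8% at 10 kb (isolated peaks 51.3%), 42.3% with 10 neighbours (50.8%), 41.0% with an overlap of 50% of both peaks (46.0%), 56.4% at −log10 q of at least 5 (53.5%) and 78.7% with equal numbers of top-ranked peaks (77.1%). The order of crowded and isolated peaks turned in the last of these and at −log10 q of at least 5. The same strongest peak was found in 0% of the 3 clusters at 10 kb, in 33.3% with 10 neighbours and in 79.5% with equal numbers.

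The median log2 fold ratio of members was −0.035 at 10 kb, −0.34 at 50 kb, −0.33 with 3 neighbours and −0.15 with 10. It was −0.35 by pileup per genome-wide background and, in alternatives chosen after seeing the data, −0.16 with nothing added to pileup and background and 0.26 by pileup per nuclear promoter count, a reversal. After subtracting the median of all shared peaks, 14 of 2213 members were at least 2-fold higher and 2 at least 2-fold lower. The shares over all shared nuclear peaks were 0.410% and 0.260%. At 1.5-fold, 19 members were higher and 339 lower, beside 0.577% and 22.4% of all shared nuclear peaks. With nothing added, chosen after seeing the data, 10 were higher and 10 lower, beside 0.375% and 0.683%. Among 1 to 1 matches 0 members were at least 2-fold higher, beside 0.0164% of all shared nuclear peaks with such a match. At 300 to 700 bp the median pileup was 53.0 and the background 7.99 fragments. Crowded minus isolated peaks reversed from 1.32 to −14.6 percentage points when bins of pileup replaced those of −log10 p, also chosen after seeing the data.

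Overexpression had 0.326 times the nuclear promoter counts of control, and the part of depth in these results was not tested. The lowest pileup of a matched peak was 6 fragments, against 10 among members in control.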

Other observations

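The 2417 crowded narrow control peaks without an overexpression peak were weaker than the members in control. Their median width was 331 bp, and their medians of pileup, fold and background were 21 fragments, 3.42 and 5.11 fragments. At the 6005 isolated control peaks that were likewise unmatched, these medians were 14 fragments, 4.54 and 2.30 fragments. The crowded peak of highest −log10 p without an overexpression peak, chr1:155363802-155364167, had 93 fragments, a fold of 12.5 and 6 neighbours. At chr6:43092168-43092614, with 5 neighbours, 94 fragments stood on a background of 7.14. Both had more fragments than the median member and overlapped no overexpression peak.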
